A study of Mus musculus with 42 samples.

Results

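Amino acid transporters carry amino acids across the membranes of the muscle fibre, and 10 of them were followed here in tibialis anterior (TA) muscle, a muscle of the lower hindlimb: Slc7a5, Slc7a8, Slc3a2, Slc7a6, Slc7a1, Slc7a2, Slc38a2, Slc38a4, Slc1a5 and Slc38a9. They were chosen by name, and all 10 were found among the 13809 genes of the table of normalized counts and passed the filter on low values in both sets. The 42 libraries were made from bulk TA muscle of male C57BL/6J mice aged 4 months and fall into 2 sets. Set 1 (22 libraries) holds wild type (WT), Sesn1SkM-Tg and Sesn2SkM-Tg muscle, basal or immobilized, and set 2 (20 libraries) holds WT and Sesn1KO (Sesn1-/-) muscle, basal or immobilized, and denervated WT muscle. There are 4 libraries a group, but 3 for immobilized Sesn1SkM-Tg muscle and 3 for the WT muscle immobilized in set 1. By the study's account, Sesn1SkM-Tg mice carry a human Sesn1 transgene driven by the muscle-specific MCK promoter. Sesn2SkM-Tg mice carry human Sesn2 under a Tet-regulated promoter that an MCK-tTA construct switches on. Their controls were littermates without a transgene, which the labels of set 1 give as a single WT group. Immobilization held 1 hindlimb still and denervation removed a piece of the sciatic nerve, both for 3 days, while basal muscle came from mice that received neither. The labels do not say whether the replicates are separate animals, so the p-values measure the spread between these libraries.

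Sestrins are stress-inducible proteins that bind leucine. Without leucine they hold back GATOR2, and so the Rag GTPases that recruit mTORC1 to the lysosome. What the sensor meets depends on transport. The light chain Slc7a5 (LAT1), paired with the heavy chain Slc3a2 (4F2hc), imports leucine in exchange for an intracellular amino acid such as glutamine, and the sodium-coupled Slc38a2 (SNAT2) helps to load the cell for that exchange. Slc38a9, on the lysosome, senses arginine and moves amino acids out of that compartment.

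Slc7a5 was higher in every kind of atrophied muscle and Slc7a2, a carrier of arginine and lysine, was lower. After denervation Slc7a5 rose 11.5-fold in mean level and Slc7a2 fell to 0.253 of its basal mean. Per kb of exon, the neighbours Slc38a2 and Slc38a4 changed their order, Slc38a4 being the higher in basal muscle and Slc38a2 in atrophied muscle. Not divided by length, Slc38a2 had the higher mean in basal WT muscle too. Between the sestrin genotypes 1 transporter, Slc7a6, passed the test, in basal Sesn2SkM-Tg muscle against WT, where 2.5% of all genes did.

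The targeted genes were checked first. Sesn1 measured 20.6, 22.1, 16.4 and 15 normalized counts in basal WT muscle of set 1 and 52.9, 77.6, 65.4 and 41.6 in basal Sesn1SkM-Tg muscle. Sesn2 measured 2.18 to 3.39 in basal WT muscle of set 1 and 6.54 to 13 in basal Sesn2SkM-Tg muscle. Both transgenes are human and the reads were mapped to mouse transcripts, so these values do not measure the degree of overexpression. In set 2, Sesn1 was at 22.5 to 29.7 in basal WT muscle and at 8.42 to 10.1 in basal Sesn1KO muscle, and after immobilization at 30.7 to 53.1 in WT and 19.4 to 37.3 in Sesn1KO muscle. The Sesn1KO libraries thus still held Sesn1 signal, and after immobilization their range overlapped that of WT (difference of -0.66 in log2, adjusted p = 0.069 by limma, not called). Of 8 muscle fibre markers fixed for the check, all had a mean above 1 in every group, with summed levels of 53440 to 157800 normalized counts in a library. Library sums of normalized counts ran from 722430 to 1276769, and the number of reads is unknown. Fewer cells of a type and less RNA per cell cannot be told apart in bulk muscle.

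**Figure D1:**
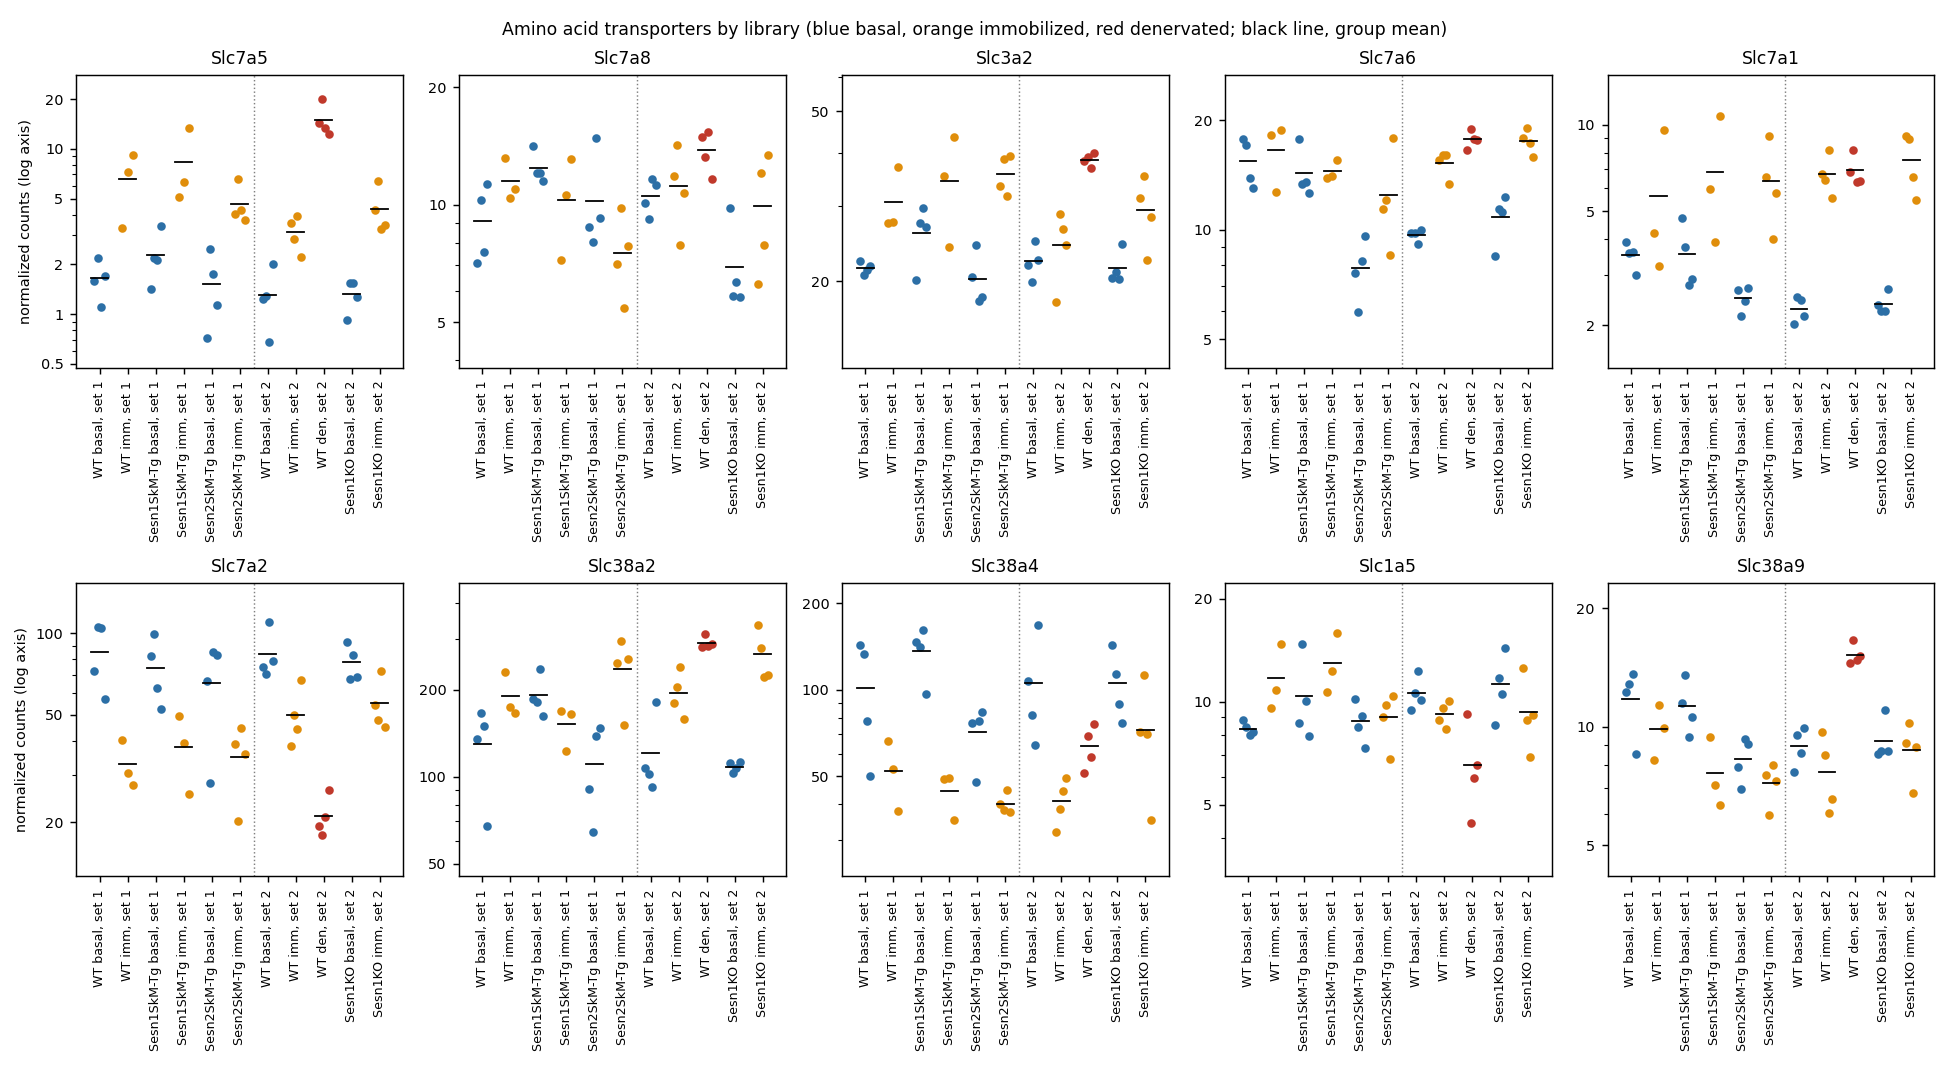
Normalized counts (log axis) of the 10 transporters in each of the 42 libraries, with 1 panel a gene, 1 point a library, colours for basal, immobilized (imm) and denervated (den) muscle, a black line for the group mean and a dotted line between set 1 and set 2. The denervated libraries stand above all basal libraries of their set for Slc7a5 (12.2 to 20.1 against 0.675 to 2) and below them for Slc7a2 (18 to 26.3 against 70.4 to 109.7 in WT).

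The order of the genes in resting muscle was compared per kb of exon, since longer transcripts give more reads. In basal WT muscle of set 2, Slc38a4 stood first with 24.8 ± 10.6 normalized counts per kb (SD, n = 4), before Slc38a2 with 13.7 ± 4.59, Slc7a2 with 9.14 ± 1.95 and Slc3a2 with 6.31 ± 0.579. Slc38a4 and Slc38a2, and Slc38a2 and Slc7a2, overlapped between libraries, while Slc7a2 and Slc3a2 did not. Slc1a5, Slc7a6 and Slc7a8 followed with 2.55, 2.12 and 2.11 per kb, and the ranges of the last pair overlapped. Slc38a9 (0.534), Slc7a5 (0.35 ± 0.147) and Slc7a1 (0.198 ± 0.0203) were the lowest, each overlapping the next. The light chain Slc7a5 was thus far below its heavy chain in resting muscle, with 0.0258 to 0.0849 of the level of Slc3a2 per kb in the 4 libraries. In denervated WT muscle Slc38a2 stood first with 32.9 ± 1.54 per kb, Slc7a5 at rank 4 with 4.04 ± 0.946, Slc7a2 at rank 7 with 2.31 ± 0.401, and Slc7a1 last with 0.602 ± 0.0727. The ranks depend on the lengths used, which join all annotated exons of a gene. They were 16.7 kb for Slc38a9 and 11.53 kb for Slc7a1 against 3.71 kb for Slc7a5. Not divided by length, Slc38a9 (8.92) stood near Slc7a8 (10.5) and above Slc7a5 (1.3) in basal WT muscle of set 2.

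**Figure D2:**
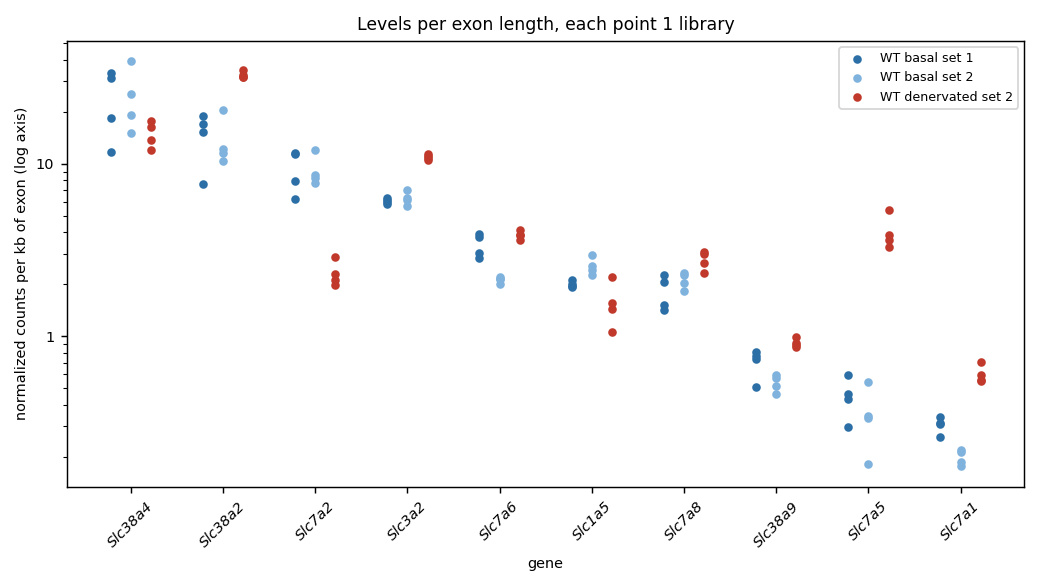
Level of each transporter per kb of exon (log axis, normalized counts) in basal WT muscle of set 1 and set 2 and in denervated WT muscle of set 2, with 1 point a library and genes in the order of their basal level. Slc7a5 stands at rank 9 in basal muscle and rank 4 in denervated muscle, and Slc7a2 moves from rank 3 to rank 7. The ranks depend on the exon lengths used.

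Comparisons between conditions were fitted within a set with limma on log2(normalized count + 1), and a call required a change of at least 0.25 together with an adjusted p below 0.05. All changes given below are differences on this scale, which understates the change of genes near 1, and adjusted p-values are those of limma with the Benjamini-Hochberg method over all genes of the set.

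Denervation of WT muscle moved 8 of the 10 transporters past the test, 6 higher and 2 lower, where 27.8% of all 13629 genes tested were called higher and 27.7% lower. The median change of the 10 was 0.74, against -0.03 over all genes. Immobilization of WT muscle in set 2 moved 6 of the 10, with 4 higher and 2 lower, where 16.2% of all genes were called higher and 17.7% lower. Both comparisons rest on the same 4 basal libraries. With libraries scaled to equal sums, 6368 of 8254 calls after denervation were higher, against 3792 of 7567 as deposited, and 2938 of 4564 after immobilization, against 2205 of 4624. In set 1, immobilization called 2 transporters higher and 2 lower in WT muscle (all genes, 14.9% and 14.5%). It called 1 higher and 3 lower in Sesn1SkM-Tg muscle (all genes, 18.2% and 16.5%), and 5 higher and 2 lower in Sesn2SkM-Tg muscle (all genes, 15% and 15.7%). In Sesn1KO muscle it called 5 higher and 1 lower (all genes, 17.2% and 19.9%). Equal sums made 4093 of 4834, 4147 of 5021, 3934 of 4892 and 2969 of 4937 calls higher in these comparisons, against 2037 of 4018, 2489 of 4756, 2055 of 4204 and 2346 of 5054. The transporters' own calls under that scaling were 5 higher and 1 lower in WT muscle of set 1, 4 and 1 in Sesn1SkM-Tg, 5 and 0 in Sesn2SkM-Tg, 5 and 0 in Sesn1KO, 4 and 2 in WT muscle of set 2 and 7 and 1 after denervation, so that the balance of 1 higher and 3 lower in Sesn1SkM-Tg muscle turned with the scaling. Over the 5 comparisons of immobilized with basal muscle, which share no libraries, Slc7a5 was called higher in 5, as were 3.13% of the 13571 genes tested in all of them, and Slc7a2 was called lower in 5, as were 5.69%. Slc38a4 was called lower in 4, Slc3a2, Slc7a6, Slc7a1 and Slc38a2 higher in 3 each, Slc38a9 lower in 1, and Slc7a8 and Slc1a5 in none, with changes of -0.38 to 0.43 for Slc7a8 and -0.25 to 0.43 for Slc1a5. No share of all genes is given for calls in 3 or 4 of the 5, so these counts have no background to be read against.

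**Figure D3:**
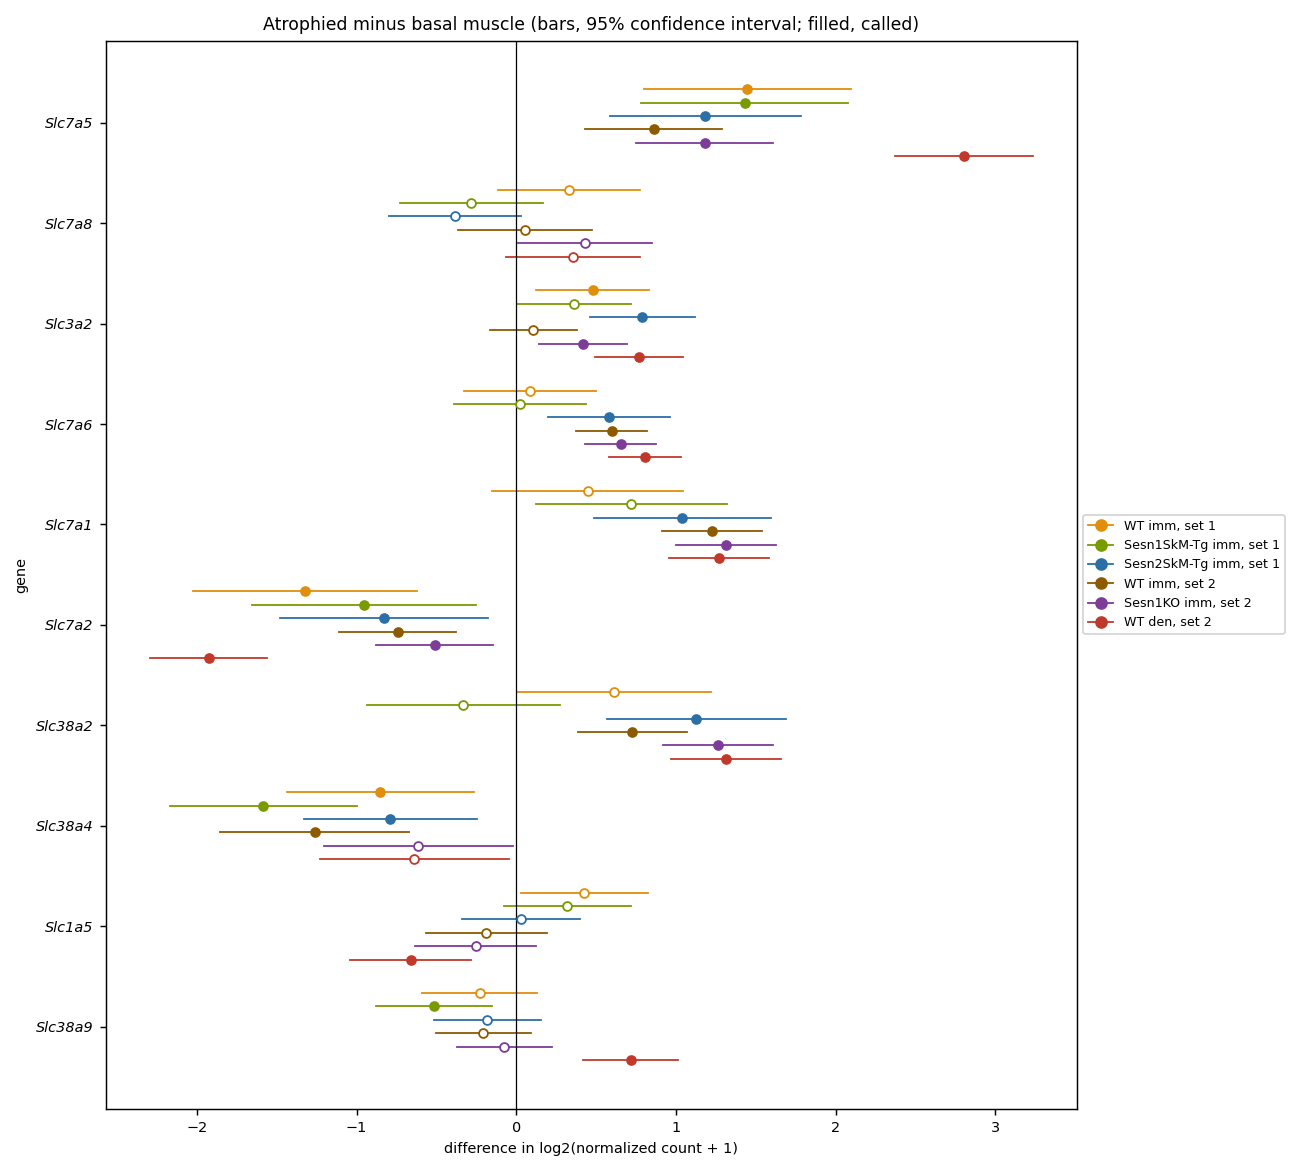
Difference between atrophied and basal muscle in log2(normalized count + 1) for each transporter in 6 comparisons (horizontal axis), with points for the limma estimate, bars for its 95% confidence interval, filled points where the gene was called and colours for genotype, treatment and set. Slc7a5 lies right of 0 in all 6, from 0.86 to 2.80, and Slc7a2 left of 0, from -1.93 to -0.51.

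Slc7a5 (chr8:121881150-121907694, minus strand, GRCm38), the light chain that carries leucine and other large neutral amino acids, showed the largest rise among the 10 after denervation. In set 2 it measured 1.24, 1.28, 0.675 and 2 normalized counts in basal WT muscle, 3.56, 2.85, 3.93 and 2.22 in immobilized WT muscle, and 14.2, 20.1, 13.4 and 12.2 in denervated WT muscle. These 3 groups did not overlap. The rise was 0.86 (SE 0.21, adjusted p = 0.0028) after immobilization and 2.80 (SE 0.21, adjusted p = 4e-10) after denervation, and denervated muscle exceeded immobilized muscle by 1.94 (adjusted p = 2.6e-07). Without a pseudocount the denervation change was 3.60. In Sesn1KO muscle Slc7a5 went from 0.923, 1.54, 1.55 and 1.28 to 4.26, 6.4, 3.29 and 3.46, a rise of 1.18 (adjusted p = 0.00013). In set 1 it went from 1.10 to 2.19 in basal to 3.31, 7.29 and 9.18 in immobilized WT muscle, a rise of 1.45 (adjusted p = 0.0019). Sesn1SkM-Tg muscle rose by 1.43 (adjusted p = 0.0016), with 5.14, 6.34 and 13.4 after immobilization against 1.42 to 3.42. Sesn2SkM-Tg muscle rose by 1.18 (adjusted p = 0.0037), with 3.73 to 6.54 against 0.716 to 2.49. In each comparison all atrophied libraries lay above all basal ones. Basal values near 1 are low, so the folds of means, 2.42 to 4 after immobilization and 11.5 after denervation, rest on imprecise basal levels.

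Slc3a2 (chr19:8706882-8723369, minus strand), the heavy chain that brings Slc7a5, Slc7a6 and Slc7a8 to the cell surface, rose less than Slc7a5. It measured 21.8, 19.9, 24.9 and 22.5 normalized counts in basal WT muscle of set 2 and 38.2, 39, 36.9 and 40 after denervation, a rise of 0.77 (SE 0.13, adjusted p = 4.4e-05) with no overlap. After immobilization of WT muscle in set 2 it measured 17.9, 28.7, 26.5 and 24.4, which overlapped basal muscle (0.11, adjusted p = 0.57). Sesn2SkM-Tg muscle went from 18 to 24.3 basal to 31.6 to 39.2 immobilized, a rise of 0.79 (adjusted p = 8e-04). WT muscle of set 1 rose by 0.48 (adjusted p = 0.04), a call lost without any 1 of its 4 basal libraries (adjusted p of 0.053 to 0.077) or without immobilized replicate 3 (0.34, adjusted p = 0.23), and with the replicate number as a block (0.053). Sesn1KO muscle rose by 0.42 (adjusted p = 0.017), a call lost without immobilized replicate 2 (adjusted p = 0.073). In Sesn1SkM-Tg muscle the change was 0.36 (adjusted p = 0.11), which became a call without immobilized replicate 2 (0.59, adjusted p = 0.016) or with equal library sums (0.66, adjusted p = 0.0073). Per kb, Slc7a5 stood at 0.291 to 0.49 of Slc3a2 in the denervated libraries, above the 0.0258 to 0.0849 of basal WT muscle.

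Slc7a8 (LAT2), the other system L light chain (chr14:54722209-54781946, minus strand), did not pass the test in any of the comparisons of atrophied with basal muscle. In set 2 it measured 10.1, 9.17, 11.6 and 11.3 in basal WT muscle and 14.9, 13.3, 15.4 and 11.6 after denervation, a difference of 0.36 with a 95% confidence interval of -0.07 to 0.78 (adjusted p = 0.14). The lowest denervated library (11.63) lay just above the highest basal one (11.61). Scaling libraries to equal sums made the difference 0.79 (adjusted p = 0.0034), and a fit of the compared groups alone called it (adjusted p = 0.021). In immobilized WT muscle of set 1 it was 0.33 (adjusted p = 0.26), or 0.64 (adjusted p = 0.049) with equal sums. In Sesn1KO muscle the change of 0.43 (adjusted p = 0.1) became a call without basal replicate 1 (0.59, adjusted p = 0.031) or without immobilized replicate 1 (0.61, adjusted p = 0.021). The ratio of Slc7a5 to Slc7a8 per kb was below 1 in all 20 basal libraries (0.0785 to 0.417) and between 1.17 and 2.05 in the 4 denervated ones. Of the immobilized libraries, 7 of 10 in set 1 were below 1 (0.34 to 1.39 over all 10), as were all 8 in set 2 (0.27 to 0.918).

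Macrophage markers moved with immobilization in set 1. All 8 markers of that list were called higher in immobilized WT muscle of set 1, with summed levels of 235.9 to 441.1 normalized counts against 45.1 to 72 in basal muscle, and all 8 in immobilized Sesn1SkM-Tg muscle (178.9 to 507.3 against 34.7 to 69.4). None of the 8 had a mean under 1 in any group. After denervation 1 of the 8 was called, and the sums were 54.4 to 145.6 against 39.4 to 170.7 in basal WT muscle, beside rises of 2.80 for Slc7a5 and 0.77 for Slc3a2. In immobilized Sesn2SkM-Tg muscle 2 of the 8 were called, in WT muscle of set 2 another 2 and in Sesn1KO muscle 1. Other cell types moved as well. In immobilized muscle of set 1, 2 of 6 endothelial, 2 of 4 pericyte, 3 of 5 fibroblast and 2 of 4 Schwann cell markers were called higher in WT, 4, 4, 5 and 4 in Sesn1SkM-Tg and 5, 4, 0 and 3 in Sesn2SkM-Tg muscle, with 1 endothelial marker lower in WT. Endothelial sums were 276.1 to 374.2 in immobilized and 155.6 to 201.6 in basal Sesn2SkM-Tg muscle. In immobilized WT muscle of set 2, 6 of 6 endothelial and 3 of 4 pericyte markers were called lower, with endothelial sums of 154.5 to 249.5 against 273.1 to 348, and in Sesn1KO muscle 3 of 6 and 1 of 4 were. After denervation 6 of 6 endothelial, 4 of 4 pericyte and 3 of 3 adipocyte markers were called lower. Schwann cell sums were then 3.44 to 7.09 against 15.6 to 26. Satellite cell marker sums in WT muscle of set 2 were 51.2 to 67.6 denervated and 36.55 to 37.1 immobilized, against 23.5 to 31.7 basal. Immobilized Sesn1KO muscle had 34.45 to 40 against 28.2 to 32.2. Set 1 had 38.3 to 46.5 against 24 to 30 in WT and 46.3 to 57.1 against 29 to 39.5 in Sesn2SkM-Tg muscle. In Sesn1SkM-Tg muscle these ranges overlapped (32.8 to 40.3 against 26.4 to 36.2). The part of these cell types in the transporters' values was not tested.

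Slc7a6 (y+LAT2), which exchanges cationic for neutral amino acids (chr8:106168857-106198706, plus strand), rose in set 2. It measured 9.83, 9.83, 9.16 and 10 in basal WT muscle, 15.6, 16, 16 and 13.4 after immobilization (0.60, SE 0.11, adjusted p = 2e-04) and 16.6, 18.9, 17.7 and 17.6 after denervation (0.81, SE 0.11, adjusted p = 1.8e-06), with neither treated group overlapping basal muscle. Sesn1KO muscle rose from 8.48 to 12.3 basal to 15.9 to 19.1 immobilized (0.65, adjusted p = 6e-05). In set 1, WT muscle was at 13.1 to 17.8 basal and 12.8 to 18.8 immobilized, a difference of 0.09 with an interval of -0.33 to 0.50. The difference between the sets in this WT effect was 0.51 (adjusted p = 0.16). Sesn2SkM-Tg muscle rose by 0.58 (adjusted p = 0.021) from a lower basal level, a call lost without basal replicate 2 (adjusted p = 0.064) or immobilized replicate 4 (0.099) and in a fit of the compared groups alone (0.063).

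Slc7a1 and Slc7a2 (CAT1 and CAT2) both carry arginine, lysine and ornithine, and where both were called they moved in opposite directions. Slc7a1 (chr5:148327410-148399904, minus strand) measured 2.03, 2.52, 2.45 and 2.16 in basal WT muscle of set 2, 6.76, 6.43, 8.2 and 5.57 after immobilization and 6.86, 8.14, 6.35 and 6.39 after denervation. The rises were 1.23 (SE 0.15, adjusted p = 3e-06) and 1.27 (SE 0.15, adjusted p = 3.9e-07), without overlap, and the treatments differed by 0.04 with an interval of -0.27 to 0.35. Sesn1KO muscle rose from 2.25 to 2.67 to 5.49 to 9.16 (1.31, adjusted p = 8.4e-07), and Sesn2SkM-Tg muscle from 2.16 to 2.71 to 4 to 9.11 (1.04, adjusted p = 0.0054). In WT muscle of set 1 the immobilized libraries were at 4.2, 3.23 and 9.59 against 2.99 to 3.90 in basal muscle (0.45, adjusted p = 0.25), so that 1 library carried most of the difference. Without that library, replicate 3, the difference between the sets in the WT effect was 1.17 (adjusted p = 0.029), against 0.78 (adjusted p = 0.14) with it. In Sesn1SkM-Tg muscle the change was 0.72 (adjusted p = 0.058), and it was called without basal replicate 1 (adjusted p = 0.046) or immobilized replicate 2 (adjusted p = 0.02), and with equal library sums (0.98, adjusted p = 0.02).

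Slc7a2 (chr8:40862396-40922308, plus strand) measured 75, 70.4, 109.7 and 78.8 in basal WT muscle of set 2, 38.1, 49.8, 44.1 and 67.3 after immobilization and 19.3, 18, 20.8 and 26.3 after denervation, 3 groups that did not overlap. It fell by 0.74 (SE 0.18, adjusted p = 0.0025) after immobilization and by 1.93 (SE 0.18, adjusted p = 9.6e-09) after denervation, and denervated lay below immobilized muscle by 1.18 (adjusted p = 1.9e-05). In set 1, WT muscle went from 72.4, 105.5, 104.7 and 57.2 to 40.3, 30.5 and 27.4, a fall of 1.32 (adjusted p = 0.0063). Sesn1SkM-Tg muscle changed by -0.95 (adjusted p = 0.033), a call lost without basal replicate 1 or 2 or immobilized replicate 2 or 3 (adjusted p of 0.065 to 0.19). Sesn2SkM-Tg muscle changed by -0.83 (adjusted p = 0.049), a call lost without basal replicate 1, 3 or 4 or immobilized replicate 1, 2 or 4 (0.056 to 0.19) and with the replicate number as a block (0.057). Sesn1KO muscle changed by -0.51 (adjusted p = 0.027), a call lost without basal replicate 1 or 3 or immobilized replicate 2 or 4 (0.064 to 0.089). Scaling libraries to equal sums ended these last 3 calls (-0.65, -0.53 and -0.40) and left those of WT muscle (-1.47 after denervation, -0.62 and -0.99 after immobilization in set 2 and set 1). Muscle fibre markers moved with denervation too: 7 of the 8 were called lower and 1 higher, with sums of 53440 to 69140 against 125300 to 138300 in basal WT muscle, a median change of -0.89 beside the -1.93 of Slc7a2. In immobilized WT muscle of set 2 their sums were 117700 to 126400, with 2 called lower and 2 higher. In set 1, fibre markers called lower numbered 3 of 8 in immobilized WT (sums of 77550 to 95180 against 113400 to 144500), 3 in Sesn1SkM-Tg, with 1 higher, and 4 in Sesn2SkM-Tg muscle, and in Sesn1KO muscle 2 were lower and 1 higher. Their part in the values of Slc7a2 and Slc38a4 was not tested.

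The ratio of Slc7a2 to Slc7a1 per kb of exon does not depend on how a library was scaled. It was 46.2 ± 8.72 (SD, n = 4) in basal WT muscle of set 2, 9.73 ± 3.91 after immobilization and 3.92 ± 1.02 after denervation. In set 1 the 12 basal libraries lay at 16.4 to 44.2 and the 10 immobilized ones at 2.79 to 14.1, and in set 2 the 8 basal libraries lay at 32.5 to 56.6 and the 12 atrophied ones at 2.79 to 15.2. The ratios were chosen after the values of their genes had been seen, and no test was made of them.

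Slc38a2 and Slc38a4 (SNAT2 and SNAT4) are sodium-coupled carriers of small neutral amino acids and lie next to each other on chromosome 15, on the minus strand. Slc38a2 spans chr15:96687392-96699730 and Slc38a4 chr15:96994820-97055956, with 295.1 kb and no other gene of the table between them. The RefSeq promoter windows below (GRCm38.p6, 250 bases before to 50 after a start, read 5′ to 3′ on the gene's strand) are shown because these neighbours differed in their response, together with those of Slc7a1 and Slc3a2, which like Slc38a2 rose after denervation. Capitals mark GC boxes, GGGCGG on either strand, which stand in 9 of the 11 windows of the 7 members with a promoter in the table (Slc7a8, Slc3a2, Slc7a6, Slc7a1, Slc38a2, Slc38a4 and Slc38a9) and in 35.7% of all 32851 windows. The second window of Slc7a1 and the last of Slc38a4 hold none. The windows of Slc7a6 (chr8:106168604-106168903 and chr8:106168671-106168970) overlap and hold the same GC box, so the 11 windows are not independent. The window of Slc3a2 lies within the span of the gene given above. Slc38a2 (chr15:96699679-96699978, minus) has a GC content of 73%, Slc38a4 (chr15:97055907-97056206, minus, the first of its 3 windows) 53%, Slc7a1 (chr5:148399855-148400154, minus, the first of its 2) 65% and Slc3a2 (chr19:8713848-8714147, minus) 56%, against a median of 52.7% over all windows.
Slc38a2: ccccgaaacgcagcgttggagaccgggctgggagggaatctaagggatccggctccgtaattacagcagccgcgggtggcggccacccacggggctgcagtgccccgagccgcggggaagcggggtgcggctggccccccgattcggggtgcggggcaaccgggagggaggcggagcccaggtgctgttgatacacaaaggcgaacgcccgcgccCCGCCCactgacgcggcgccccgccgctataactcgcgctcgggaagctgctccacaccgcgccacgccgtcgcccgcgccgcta
Slc38a4: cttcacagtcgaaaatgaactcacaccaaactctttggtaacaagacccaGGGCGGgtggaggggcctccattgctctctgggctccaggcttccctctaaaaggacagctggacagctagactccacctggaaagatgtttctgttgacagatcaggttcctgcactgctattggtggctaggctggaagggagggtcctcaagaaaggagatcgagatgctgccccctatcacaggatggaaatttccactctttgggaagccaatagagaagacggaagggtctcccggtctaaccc
Slc7a1: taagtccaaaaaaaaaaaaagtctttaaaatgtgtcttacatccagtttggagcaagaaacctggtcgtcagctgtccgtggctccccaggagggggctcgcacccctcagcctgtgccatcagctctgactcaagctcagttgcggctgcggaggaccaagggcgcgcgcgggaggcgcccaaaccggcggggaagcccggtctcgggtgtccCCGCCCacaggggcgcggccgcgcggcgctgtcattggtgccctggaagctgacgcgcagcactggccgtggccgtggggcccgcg
Slc3a2: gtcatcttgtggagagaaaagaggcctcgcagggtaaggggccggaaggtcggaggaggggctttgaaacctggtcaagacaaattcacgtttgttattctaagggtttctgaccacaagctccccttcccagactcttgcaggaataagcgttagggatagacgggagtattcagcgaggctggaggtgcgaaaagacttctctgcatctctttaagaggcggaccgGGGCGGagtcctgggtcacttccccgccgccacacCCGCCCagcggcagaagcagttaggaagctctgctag
None of the 11 windows of the 7 members held the letters TGATGNAA (the core of the CEBP-ATF response element, in 3.97% of all windows), CACGTG (an E-box, 7.15%) or GTAAACA (a FoxO core, 3.65%) on either strand.

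In WT muscle of set 2, Slc38a2 measured 107.5, 102.4, 92.1 and 180.8 normalized counts in basal muscle, 179.5, 204.2, 239.9 and 158.8 after immobilization, and 281.8, 310.9, 282.8 and 288.3 after denervation. The rise after denervation was 1.31 (SE 0.16, adjusted p = 8.3e-07) with no overlap, and that after immobilization was 0.73 (SE 0.16, adjusted p = 0.0017) with an overlap through basal replicate 4. Sesn1KO muscle rose from 111.5, 102.6, 106.8 and 112.7 to 335.1, 280.1, 221.4 and 224.5 (1.26, adjusted p = 4.2e-06). Sesn2SkM-Tg muscle rose from 64.5 to 148 to 151.2 to 293.9 (1.13, adjusted p = 0.0032). WT muscle of set 1 went from 67.3 to 166.5 to 166.1, 174.1 and 230.3 (0.61, adjusted p = 0.12, or 0.95 and 0.028 with equal library sums), and Sesn1SkM-Tg muscle from 162.1 to 236.6 to 123, 165 and 168.5 (-0.33, adjusted p = 0.4).

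Slc38a4 measured 107.5, 81.9, 64.5 and 168 in basal WT muscle of set 2 and 32.1, 38.4, 44.6 and 49.4 after immobilization, a fall of 1.26 (SE 0.28, adjusted p = 0.0016) with no overlap. After denervation it measured 51.4, 69.4, 58.6 and 75.8, which overlapped basal muscle (-0.64, adjusted p = 0.061), and was called without basal replicate 3 (-0.84, adjusted p = 0.02), under quantile normalization (-0.69, adjusted p = 0.036) and in a fit of the compared groups alone (adjusted p = 0.028), but was -0.18 with equal library sums. Sesn1SkM-Tg muscle went from 147, 140.5, 161.6 and 97 to 49, 49.5 and 35.3, a fall of 1.58 (SE 0.28, adjusted p = 0.00034). WT muscle of set 1 changed by -0.85 (adjusted p = 0.028), a call lost without basal replicate 1 or 2 or immobilized replicate 2 or 3 (0.058 to 0.17). Sesn2SkM-Tg muscle changed by -0.79 (adjusted p = 0.026), a call lost without basal replicate 1, 3 or 4 or immobilized replicate 2 or 4 (0.058 to 0.075). With libraries scaled to equal sums these were -0.52 (adjusted p = 0.2) and -0.48 (adjusted p = 0.19). In Sesn1KO muscle, 143, 113.4, 89.2 and 77 in basal muscle stood beside 71.2, 112.4, 70.3 and 35.3 (-0.61, adjusted p = 0.097), and the difference was called without immobilized replicate 2 (-0.86, adjusted p = 0.021).

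Within a library and per kb of exon, the 2 neighbours changed places. Per kb, Slc38a2 stood at 0.453 to 0.928 of Slc38a4 in the 12 basal libraries of set 1 and at 1.197 to 3.71 in its 10 immobilized libraries. In set 2 the ratio was 0.376 to 0.706 in the 8 basal libraries and 1.202 to 3.07 in the 12 immobilized or denervated ones. The ratio was thus below 1 in all 20 basal libraries and above 1 in all 22 atrophied ones, although Slc38a2 alone and Slc38a4 alone overlapped between groups in several comparisons. This pair, too, was chosen after the values of its genes had been seen, and the ratio was not tested. The place of 1 depends on the exon lengths used, and the gap between the groups does not. Not divided by length, the mean of Slc38a2 was above that of Slc38a4 in basal WT muscle too (129.6 against 101.2 in set 1 and 120.7 against 105.5 in set 2). In Sesn1SkM-Tg muscle the shift came with a fall of Slc38a4 and a change of -0.33 in Slc38a2. In Sesn1KO and denervated muscle it came with a rise of Slc38a2 and changes of -0.61 and -0.64 in Slc38a4, which were not called.

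**Figure D4:**
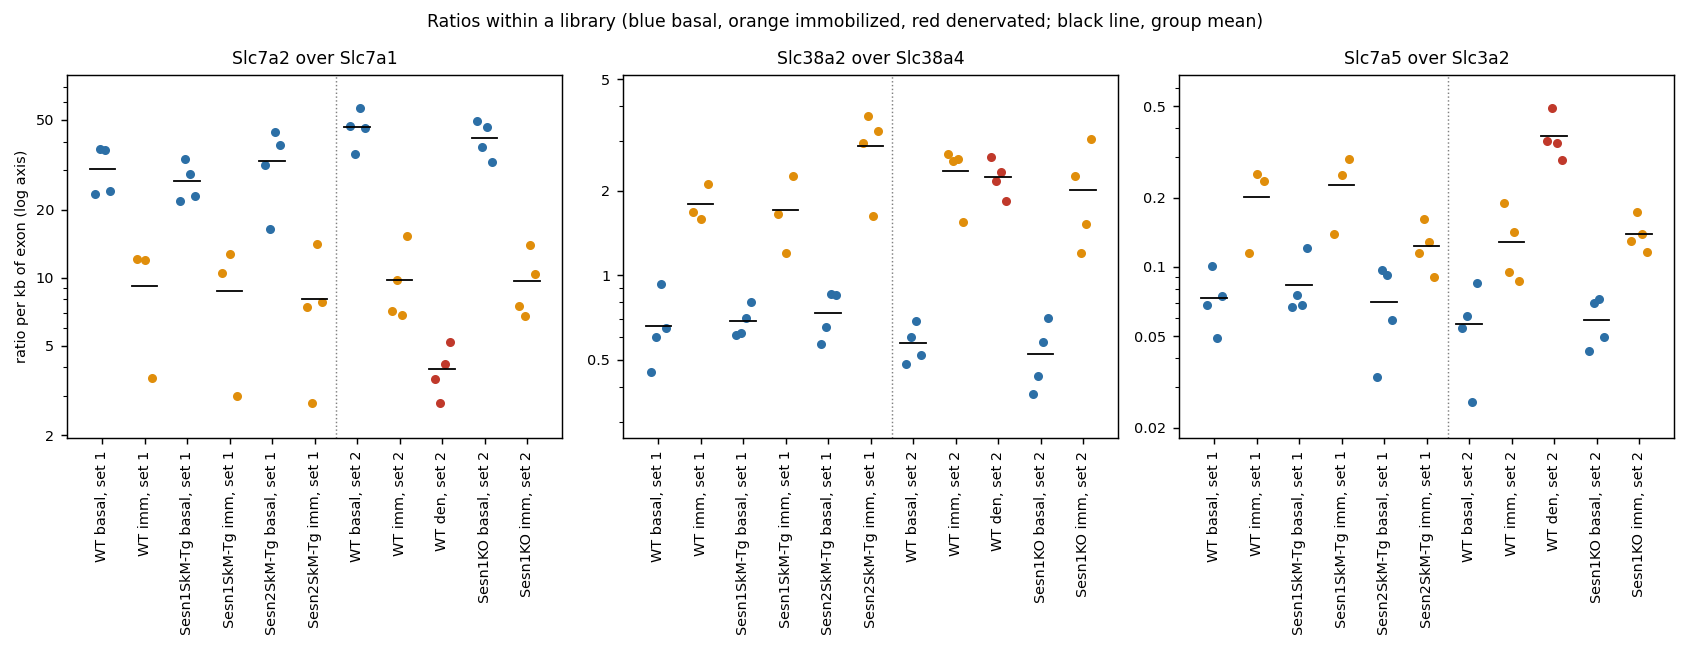
Ratios of the levels per kb of exon within each library (log axes) for Slc7a2 over Slc7a1, Slc38a2 over Slc38a4 and Slc7a5 over Slc3a2, with 1 point a library, colours for basal, immobilized (imm) and denervated (den) muscle and a black line for the group mean. All 22 atrophied libraries lie above 1 for Slc38a2 over Slc38a4 and all 20 basal libraries below 1. The place of 1 depends on the exon lengths used, and the ratios were chosen after the values of their genes had been seen.

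Slc1a5 (ASCT2), an exchanger of glutamine and other small neutral amino acids (chr7:16781340-16798274, plus strand), fell after denervation. It measured 9.44, 10.6, 12.3 and 10.1 in basal WT muscle of set 2 and 9.17, 4.4, 5.97 and 6.51 after denervation, with no overlap but with the highest denervated and lowest basal library close together (-0.66, SE 0.18, adjusted p = 0.004). With equal library sums the difference was -0.25 (adjusted p = 0.31). Markers of vessels and connective tissue moved with it: 6 of 6 endothelial, 4 of 4 pericyte and 2 of 5 fibroblast markers were called lower after denervation, with fibroblast sums of 288.2 to 462.1 against 421.7 to 668.3, and their part was not tested. Below immobilized muscle (8.32 to 10) it lay by 0.47 (adjusted p = 0.044), a call lost without any 1 of denervated replicates 2, 3 and 4 or immobilized replicates 1, 2 and 4 (0.065 to 0.18) and with the replicate number as a block (0.054). In set 1 WT muscle it measured 7.99 to 8.82 in basal and 9.56, 10.8 and 14.8 in immobilized muscle, which did not overlap (0.43, adjusted p = 0.099, or 0.73 and 0.014 with equal library sums). In Sesn1SkM-Tg muscle the change of 0.32 (adjusted p = 0.2) was called without basal replicate 2 (0.49, adjusted p = 0.046) and with equal library sums (0.61, adjusted p = 0.037).

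Slc38a9 (chr13:112660751-112738749, plus strand), the lysosomal arginine sensor and the member nearest to the sestrin pathway, rose after denervation and was called in 1 of the 5 immobilization comparisons, where it was lower. It measured 7.66, 9.52, 8.57 and 9.93 in basal WT muscle of set 2, 9.7, 8.48, 6.05 and 6.55 after immobilization and 14.5, 16.6, 14.8 and 15.2 after denervation. The denervated libraries lay above all others of the set, by 0.72 over basal (SE 0.14, adjusted p = 0.00021) and by 0.92 over immobilized muscle (SE 0.14, adjusted p = 2.8e-05). Immobilization of WT muscle changed it by -0.21 in set 2 (interval of -0.50 to 0.09) and by -0.23 in set 1 (-0.59 to 0.13). In Sesn1SkM-Tg muscle it changed by -0.52 (adjusted p = 0.026), from 9.44 to 13.5 to 9.4, 7.12 and 6.31, a call lost without basal replicate 1 or 2 or immobilized replicate 2 or 3 (0.054 to 0.15) and with equal library sums (-0.24, adjusted p = 0.32).

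Set beside each other, denervated and immobilized WT muscle of set 2 differed in 6 transporters (20.5% of all genes were called higher and 18.4% lower in denervated muscle). Slc7a5, Slc38a9, Slc3a2 and Slc38a2 (0.59, adjusted p = 0.0073) were higher after denervation and Slc7a2 and Slc1a5 lower, while Slc7a1 and Slc7a6 were raised by both treatments and differed between them by 0.04 and 0.21 (adjusted p = 0.85 and 0.13). Equal library sums made the latter 0.53 (adjusted p = 0.00079), and ended the call of Slc1a5 (-0.18, adjusted p = 0.51). Slc38a4 was 0.62 higher after denervation without overlap (adjusted p = 0.088), and was called with equal sums (0.96, adjusted p = 0.0067) and in a fit of the compared groups alone (adjusted p = 0.0054).

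The question of the genotypes was whether raising or removing a sestrin moves the carriers that feed its leucine signal. In muscle raised in Sesn1, no transporter passed the test against WT, either basal (0.0292% of all genes called) or immobilized (0.0073%), and none differed in its immobilization effect (0%). In muscle raised in Sesn2, 1 was called in basal muscle (2.5% of all genes), none in immobilized muscle (2.94%) and none in the immobilization effect (0.0073%). In Sesn1KO muscle none was called, whether basal (0.147%), immobilized (0.947%) or in the immobilization effect (0.022%). At an unadjusted p under 0.05 limma gave 2, 0 and 1 of the 10 transporters for Sesn1SkM-Tg, 2, 2 and 1 for Sesn2SkM-Tg and 1, 2 and 1 for Sesn1KO muscle, in the same order. Of all genes, 3.63%, 3.04% and 2.93% passed that threshold for Sesn1SkM-Tg, 15.6%, 19.2% and 7.35% for Sesn2SkM-Tg and 4.64%, 14.1% and 7.98% for Sesn1KO muscle. A count of 2 of 10 is thus near the share of all genes in Sesn2SkM-Tg muscle and in immobilized Sesn1KO muscle. In basal Sesn1SkM-Tg muscle it is above the 3.63% of all genes, and neither of the 2 passed the adjustment. The immobilization effect of WT muscle was called different between the sets in none of the 10, and in 6.2% of all genes. At an unadjusted p under 0.05 limma gave 3 of the 10 and 22.4% of all genes.

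Slc7a6 was the transporter called between genotypes. It measured 17.8, 17.1, 13.9 and 13.1 in basal WT muscle of set 1, 17.7, 13.4, 13.6 and 12.7 in basal Sesn1SkM-Tg muscle and 7.63, 5.96, 8.24 and 9.63 in basal Sesn2SkM-Tg muscle. The Sesn2SkM-Tg libraries lay below all others, 0.90 under WT (SE 0.18, adjusted p = 0.0092). The adjusted p rose to at most 0.045 with a compared library left out, and to 0.05 under other settings. After immobilization they lay at 8.54 to 17.9 against 12.8 to 18.8 in WT muscle (-0.41, adjusted p = 0.27), and the difference in the immobilization effect was 0.49 with an interval of -0.07 to 1.05 (adjusted p = 0.77).

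The intervals show what could have been missed. For Slc7a5, Sesn1SkM-Tg minus WT was 0.29 (-0.31 to 0.89) in basal and 0.28 (-0.41 to 0.97) in immobilized muscle. Sesn2SkM-Tg minus WT was -0.10 (-0.70 to 0.50) and -0.37 (-1.01 to 0.28), and Sesn1KO minus WT was 0.04 (-0.40 to 0.47) and 0.35 (-0.08 to 0.79). For its partner Slc3a2 the 6 estimates ran from -0.09 to 0.26. Slc38a2 had the widest spread of immobilization effects. Its effect in Sesn1SkM-Tg muscle was 0.94 below that in WT (interval of -1.80 to -0.09, adjusted p = 1), and its effect in Sesn1KO muscle was 0.54 above that in WT of its set (0.05 to 1.02, adjusted p = 0.58), and neither passed the adjustment. Slc38a4 in immobilized muscle was 0.71 higher in Sesn1KO than in WT (SE 0.28, adjusted p = 0.26), and this was called without Sesn1KO immobilized replicate 4 (1.01, adjusted p = 0.03). For Slc38a9, basal Sesn2SkM-Tg muscle was 0.45 below WT (adjusted p = 0.16), called without WT basal replicate 4 (-0.59, adjusted p = 0.025). For Slc7a8, basal Sesn1SkM-Tg muscle lay above WT without overlap (11.5 to 14.2 against 7.08 to 11.3, a difference of 0.44). Basal Sesn1KO muscle was lower than WT of its set with an overlap (5.81 to 9.83 against 9.17 to 11.6, a difference of -0.56). Neither difference of Slc7a8 was called.

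**Figure D5:**
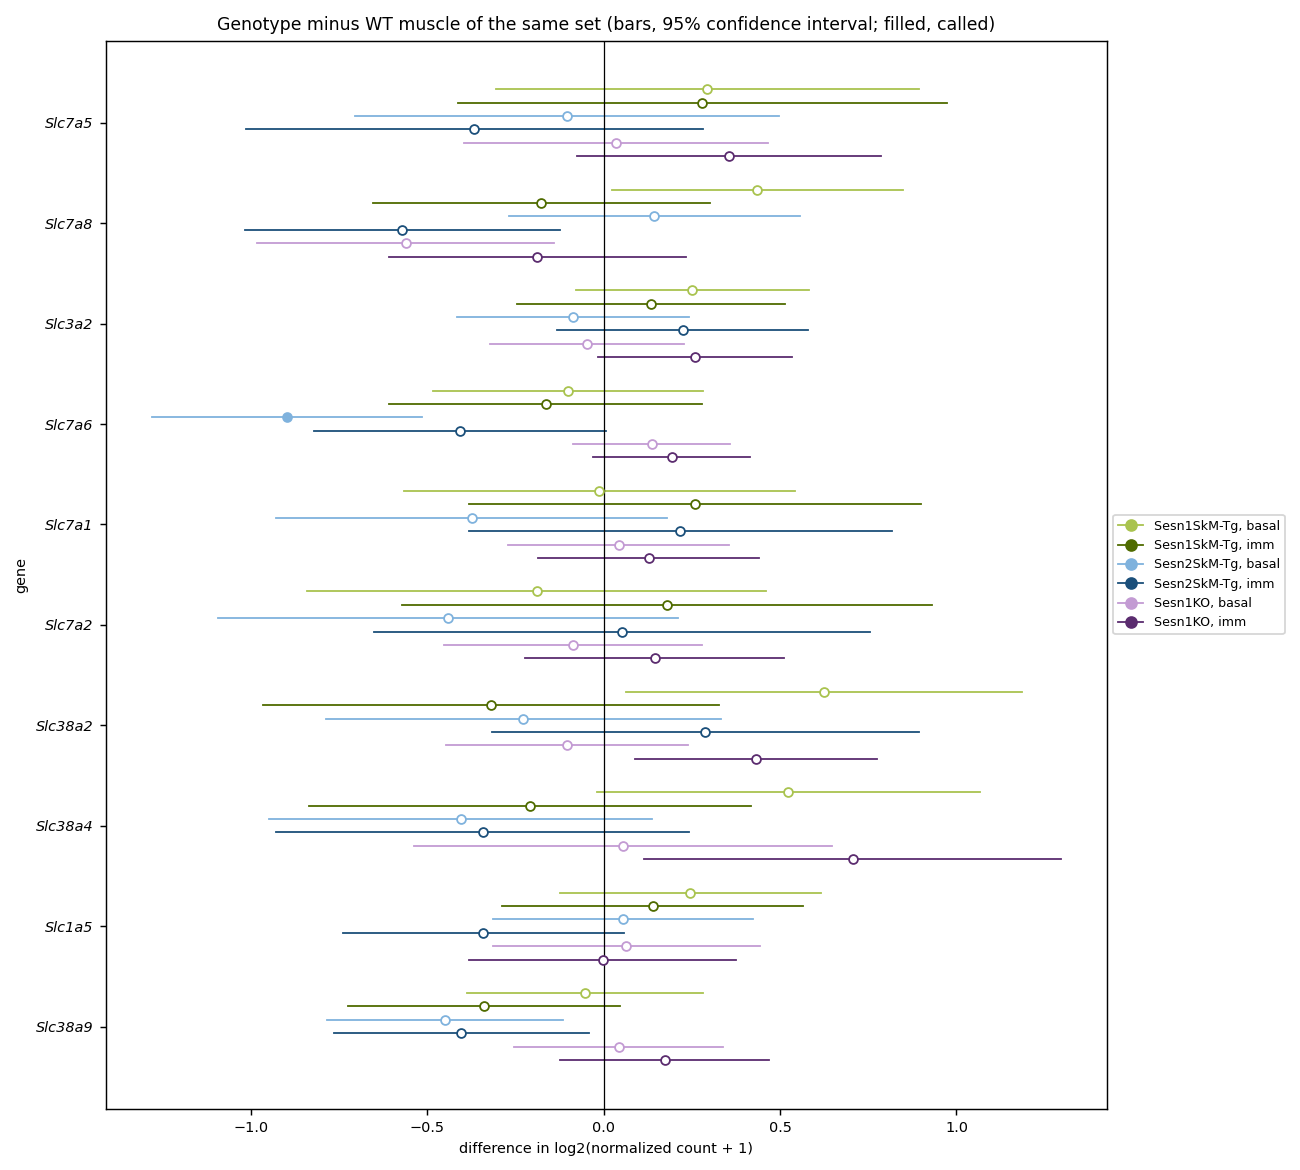
Genotype minus WT, each within its set and treatment, in log2(normalized count + 1) (horizontal axis) for each transporter, with points for the limma estimate, bars for its 95% confidence interval and filled points where the gene was called. The filled point is Slc7a6 in basal Sesn2SkM-Tg muscle at -0.90.

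The sensing machinery that the transporters feed was followed with a list of 32 genes, from the sestrins and GATOR complexes to the Rag GTPases and mTORC1. After denervation 14 rose and 7 fell, with a median of 0.05 against -0.03 over all genes, of which 27.8% were called higher and 27.7% lower. After immobilization of WT muscle, 9 rose and 5 fell in set 2 (all genes, 16.2% and 17.7%) and 3 rose and 8 fell in set 1 (14.9% and 14.5%). In Sesn1SkM-Tg muscle 0 rose and 11 fell (18.2% and 16.5%), in Sesn2SkM-Tg muscle 4 rose and 8 fell (15% and 15.7%), and in Sesn1KO muscle 11 rose and 8 fell (17.2% and 19.9%). Among the sestrins, Sesn1 fell by 1.03 after denervation (adjusted p = 3.5e-05) and rose by 0.63 after immobilization in WT muscle of set 2 (adjusted p = 0.0072), while in set 1 it changed by -0.41 (adjusted p = 0.2), and these WT effects differed between the sets by 1.04 (adjusted p = 0.032). In Sesn1KO muscle the remaining Sesn1 signal rose by 1.36 (adjusted p = 3e-06). Sesn2 rose by 0.83 after denervation (adjusted p = 0.006) and by 0.87 after immobilization in set 2 (adjusted p = 0.0082), and Sesn3 rose by 0.86 after denervation (adjusted p = 0.0016) and fell by 1.07 after immobilization of WT muscle in set 1 (adjusted p = 0.0086). Slc7a5 and Slc38a2 rose in denervated muscle, where Sesn1 fell, and in immobilized WT muscle of set 2, where it rose. In immobilized WT muscle of set 1, where Sesn1 was not called, Slc7a5 rose (1.45) and Slc38a2 was not called (0.61, adjusted p = 0.12). The part of Sesn1 in these changes was not tested. Of the whole list, the genes called between genotypes were the targeted Sesn1 (basal Sesn1SkM-Tg, 1.61, and basal Sesn1KO, -1.39) and Sesn2 (basal Sesn2SkM-Tg, 1.66, and immobilized, 1.86), Sesn3 in basal Sesn2SkM-Tg muscle (-1.21, adjusted p = 0.016), and Gatsl2, which encodes a CASTOR subunit of the arginine-sensing branch, lower in Sesn2SkM-Tg muscle both basal (-1.05, adjusted p = 0.00095) and immobilized (-1.36, adjusted p = 0.00025).

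ATF4 is a transcription factor of the response to amino acid shortage, and Slc7a5, Slc3a2, Slc7a1 and Slc38a2 are among the carriers it is known to induce. Of 21 genes of an ATF4 list, Atf4 included and these carriers left out, 13 rose and 3 fell after denervation (median 0.54; all genes, 27.8% and 27.7%), 11 and 2 after immobilization of WT muscle in set 2 (16.2% and 17.7%), and 7 and 2 in set 1 (14.9% and 14.5%). They numbered 7 and 1 in Sesn1SkM-Tg (18.2% and 16.5%), 12 and 2 in Sesn2SkM-Tg (15% and 15.7%) and 10 and 3 in Sesn1KO muscle (17.2% and 19.9%). Atf4 rose by 0.41 after denervation (adjusted p = 0.012), by 0.65 after immobilization in WT muscle of set 2 (adjusted p = 0.00069), by 0.79 in Sesn1KO (adjusted p = 8.4e-05) and by 0.73 in Sesn2SkM-Tg muscle (adjusted p = 7e-04). It changed by 0.37 in WT muscle of set 1 (adjusted p = 0.078) and by 0.02 in Sesn1SkM-Tg muscle (adjusted p = 0.94). Of the 4 carriers, Slc7a5 was called in both of these comparisons, Slc3a2 in the first, and Slc38a2 and Slc7a1 in neither. In immobilized WT muscle of set 2 Slc3a2 changed by 0.11. These are levels of Atf4 RNA, not of the protein or its activity, and the part of ATF4 in the carriers' values was not tested. After denervation the largest rises of the list were those of Eif4ebp1, a brake on translation (2.28), Atf3, a stress factor (2.11), and Ppp1r15a, which restores translation after stress (1.89). Its 3 falls were Ddit3 (-1.16), another stress factor, Psph (-1.09), of serine synthesis, and Nupr1 (-0.63).

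Other amino acid carriers were set beside the share of all genes called. Of 30 in the table (of 51 listed), 4 rose and 5 fell in immobilized WT muscle of set 1 (all genes, 14.9% and 14.5%), 6 and 4 in Sesn1SkM-Tg (18.2% and 16.5%) and 5 and 5 in Sesn2SkM-Tg muscle (15% and 15.7%). Of the 29 tested in set 2, 7 and 3 did so in immobilized WT (16.2% and 17.7%), 7 and 7 in Sesn1KO (17.2% and 19.9%) and 9 and 6 in denervated muscle (27.8% and 27.7%). The glycine carrier Slc6a9 rose in all 6 comparisons (0.99 to 2.40). The mitochondrial carriers Slc25a12, of aspartate and glutamate, and Slc25a29, of basic amino acids, fell in all 6 (-1.49 to -0.61 and -1.61 to -0.59). After denervation the taurine carrier Slc6a6 rose by 1.67 (adjusted p = 7.9e-11) and the system L carrier Slc43a2 by 1.17 (adjusted p = 1.9e-05), while Slc6a17 fell by 0.82 (adjusted p = 0.0067). Slc6a6 also rose after immobilization in set 2 (0.76), and the neutral amino acid carrier Slc6a19 rose there (1.10), in Sesn2SkM-Tg (0.88) and in Sesn1KO muscle (1.43). Pqlc2, a lysosomal exporter of cationic amino acids, rose in immobilized WT muscle of set 1 (0.69), Slc15a4, a lysosomal histidine and peptide carrier, there (0.64) and in Sesn2SkM-Tg muscle (1.21), and Mfsd12, a lysosomal cysteine importer, in Sesn1SkM-Tg muscle (0.90). The glutamate carrier Slc1a1 rose in Sesn1KO muscle (1.01) and the system L carrier Slc43a1 fell there (-0.94). The mitochondrial glutamate carrier Slc25a22 fell in immobilized WT (-1.11) and Sesn2SkM-Tg muscle (-0.87) of set 1, the ornithine carrier Slc25a15 fell in WT muscle of set 2 (-0.39), and Slc6a17 in Sesn1SkM-Tg muscle (-0.85). Slc38a1, which lies 44.5 kb from Slc38a2 on the same strand, rose in Sesn1SkM-Tg muscle (1.17, adjusted p = 0.014), where Slc38a2 changed by -0.33.

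Over the 11 group means of log2 values, each centred on the mean of its set, Slc7a5 followed Slc3a2 at a Pearson correlation of 0.93 and ran against Slc7a2 at -0.94, and Slc7a1 followed Slc38a2 at 0.86. These describe 11 means of 3 or 4 libraries, most of which differ by atrophied against basal muscle. Of genes that reached 1 in all libraries, 10138 were searched for Slc7a5, which was not among them, and 10137 for each other transporter. The most like Slc7a5 were Fez1 (0.995), Eif1a (0.992) and Nubp1 (0.992), and the most like Slc7a2 were Tfam (0.991), Mxi1 (0.988) and Zbtb4 (0.987). Slc3a2 was most like Pak2 (0.975), Sec11a (0.972) and Sfpq (0.964), and Slc7a1 most like Fam214b (0.98), 9530068E07Rik (0.976) and Srp54a (0.973). Slc38a2 was most like Mettl1 (0.971), Mfhas1 (0.963) and Dlg5 (0.962), and Slc38a4 most like Foxk2 (0.965), Lysmd1 (0.964) and Gdf11 (0.963). Slc38a9 was most like Mettl8 (0.963), Ttc3 (0.96) and Uba6 (0.956), and Slc1a5 most like F3 (0.959), Dpt (0.958) and Nid1 (0.954). Slc7a6 was most like 2010012O05Rik (0.933), Trim33 (0.92) and Gm10698 (0.916), and Slc7a8 had the weakest likeness, to Bcl6 (0.867), Rraga (0.86) and Colgalt1 (0.857).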

How the data were processed

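RNA of TA muscle was sequenced in 42 libraries. By the study's methods and notes, the authors isolated RNA (QIAzol, RNeasy), built NEBNext Ultra libraries, ran FastQC and Cutadapt 1.7.1 on the reads, estimated abundance by RSEM 1.2.20 on a GRCm38 transcriptome and normalized them with limma (edgeR is also named). The deposited signal values are the authors' normalized counts, linear and close to CPM in size. Depth is unknown, whole reads could not be recovered, and no count test was run. The filter applied to the table and the way the sets were combined were not found, so comparisons were kept within a set.

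The labels gave the groups. In R 4.3.3 with limma 3.58.1, log2(value + 1) of genes reaching 1 in at least 1 library of the set (13705 in set 1, 13629 in set 2, 13763 over both for the difference between sets) was fitted over all groups of the set, with eBayes and its trend. Tests are two-sided. On simulated data with 100 genes changed at each size, immobilized against basal WT muscle recovered 80% of changes of 1 and 100% of changes of 2 in set 1 (8 false calls among 13205 genes), and 94% and 99% in set 2 (6 among 13287). The changed genes were drawn only from those of higher basal level than Slc7a5 and Slc7a1, so these rates do not cover low genes such as these.

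The members and lists were chosen with earlier results of these data known. All members were named; other carriers by the 3 largest calls in each direction in a comparison or a call in all 6; sensing genes if a sestrin or called between genotypes; ATF4 targets by Atf4 and the 3 largest calls each way after denervation; and the 3 genes of most like pattern. 1 gene of the lists is not reported here by name. Positions and exon lengths come from GENCODE M21 (13722 of 13809 genes matched, 99.4%), promoters from RefSeq (7 of 10 members), and Slc7a5, Slc7a2 and Slc1a5 had none in that table. Python 3.11.15 and matplotlib 3.10.9 made the figures. Alternatives were other filters, pseudocounts of 0.1 and 0, quantile normalization, median centring, equal library sums, eBayes without trend, the compared groups alone, a replicate block, other fold thresholds and each library left out. Data other than RNA-seq were not analysed here.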

Additional observations from a re-analysis of the deposited data

Results flagged for a closer look

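In 90 groups of 4 libraries (10 transporters, groups of 3 not examined), the highest or lowest library was set against the others by Dixon's ratio of its gap to the whole range, and 2 groups exceeded the 95% critical value for 4 samples, which chance exceeds in about 5% of groups. Both are in basal Sesn1KO muscle. Slc7a8 measured 9.83 normalized counts in replicate 1 and 5.81 to 6.33 in the other libraries (ratio 0.871). Slc38a9 measured 11.01 in replicate 3 and 8.50 to 8.70 in the others (ratio 0.921). Without replicate 1 the immobilization change of Slc7a8 in Sesn1KO muscle passed the test (0.59, adjusted p = 0.031 by limma).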

How the results depend on the processing

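Of 2040 recomputed results of single transporters under other settings, 1981 kept their side of the threshold, 45 lost and 14 gained a call. Of 1590 with a library left out, 1538 kept it, 41 lost and 11 gained a call. A change of sign was counted only where either fit made a call, and 0 were found. Changes of sign without a call were counted as kept, such as Slc38a9 in immobilized WT muscle of set 1 (-0.23, or 0.08 with equal library sums). A fold threshold of 1 left 2 transporters called in immobilized WT muscle of set 1, 2 in Sesn1SkM-Tg, 3 in Sesn2SkM-Tg, 2 in WT of set 2, 4 after denervation, 2 in denervated against immobilized muscle, 3 in Sesn1KO and 0 in basal Sesn2SkM-Tg against WT, by its construction. The shares of all genes given above are for the threshold of 0.25 and do not apply to these counts. The fit of the compared groups alone, with fewer samples, called 2 in immobilized WT muscle of set 1. Over all genes it called 2665 there against 4018, 93 against 343 for basal Sesn2SkM-Tg against WT and 14 against 129 for immobilized Sesn1KO against WT, and the replicate block called 229 against 403 for immobilized Sesn2SkM-Tg against WT. With 1 library left out, the counts ran from 2 to 4 in WT and in Sesn1SkM-Tg muscle of set 1, from 4 to 7 in Sesn2SkM-Tg muscle, stayed at 6 in WT of set 2, and ran from 8 to 9 after denervation, 5 to 6 in denervated against immobilized muscle, 5 to 7 in Sesn1KO muscle, 1 to 2 in basal Sesn2SkM-Tg against WT, and 0 to 1 in immobilized Sesn1KO against WT and in the difference between sets; those at 0 otherwise stayed at 0. Scaling to equal library sums moved the median change of all genes by over 0.1 in 6 comparisons, to 0.35 after denervation, 0.26 in denervated against immobilized muscle, 0.28, 0.25 and 0.26 for immobilized WT, Sesn1SkM-Tg and Sesn2SkM-Tg muscle of set 1 and -0.18 for the difference between sets, and it raised the share of higher calls in all of these but the last, where 110 of 728 were higher.

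The replicate numbers did not pair the libraries: 24 of 91 same-numbered pairs correlated above 0.1 (median -0.001), and 48 of 182 checks placed a library best with its own number. With the number as a block, the calls of Slc3a2 in immobilized WT muscle of set 1 (0.053), Slc7a2 in Sesn2SkM-Tg muscle (0.057) and Slc1a5 in denervated against immobilized muscle (0.054) were lost, and no other call of a transporter changed. Depth being unknown, the precision of low genes such as Slc7a5 in basal muscle cannot be given.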
